A study of Mus musculus with 19 samples.

Results

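Islets of BLKS mice were compared with islets of B6 mice after both had been held in 20 mM glucose. The comparison rests on 9 of the 19 mice of the series, 5 B6 and 4 BLKS, chosen by their labels for strain and glucose, and it was followed across 15527 genes and 46 lists of genes by function or cell type. B6 is C57BL/6J, the most used laboratory mouse strain, and BLKS is C57BLKS/J, a related inbred strain that carries segments of other strains in a largely C57BL/6J genome. The mice were males of 12 weeks with no obesity mutation or treatment, so the groups differ in the inherited genome and share the rest of the design. Islets of each mouse were kept apart, rested for 48 h in medium with 11 mM glucose and then held for 24 h in 20 mM glucose. A single glucose concentration and age were used, and isolated islets lack the blood flow, nerves and hormones of the animal.

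Pancreatic islets are clusters of endocrine cells in which beta cells make insulin, alpha cells glucagon, delta cells somatostatin and PP cells pancreatic polypeptide, among endothelial cells, fibroblast-like cells and macrophages. Beta cells take up and oxidise glucose, and the ATP that results closes a potassium channel, opens calcium channels and releases insulin granules. Long exposure to high glucose raises the demand for proinsulin folding in the endoplasmic reticulum (ER), turns on glucose-responsive transcription and can drive beta cells into the cell cycle. BLKS mice are known for severe diabetes when they lack the leptin receptor, whereas B6 mice with the same defect compensate by expanding their beta cells.

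Each mouse was hybridised on 2 arrays, in Cy3 on one and Cy5 on the other, and the level given below is the log2 of its signal averaged over both dyes. A difference is BLKS minus B6 in log2 units with the standard error of the limma fit, so that 1 unit is a 2-fold difference. A gene is read by its brightest tested probe and is called when the Benjamini-Hochberg adjusted p over all 27882 probes is below 0.05. The islet hormones could not be compared: Ins1, Ins2, Gcg, Sst, Iapp and Pyy were saturated in all 9 mice, as were the granule proteins Chga and Pcsk2, and Ppy was saturated in 3 of 5 B6 and 2 of 4 BLKS mice. Bright endocrine signals were thus present in both strains. Among the markers of other cells, the summed signal of 11 acinar genes was 4022 to 4840 in B6 and 4460 to 5296 in BLKS. That of 9 lymphocyte genes was 1087 to 1147 and 1105 to 1141. No lymphocyte marker was called.

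Of the 27882 probes tested, 4124 were called, or 14.8%, with 1824 higher in BLKS (6.54%) and 2300 lower (8.25%). Read by gene, 2773 of 15527 were called (17.9%), 1234 higher in BLKS (7.95%) and 1539 lower (9.91%), and these shares are the background for every list that follows. The 2 groups of mice did not overlap in 2763 genes (17.8%). The median absolute difference of the called genes was 0.26, and the median difference over all genes was 0.01. Most differences were therefore small, with 294 genes called beyond 1.5-fold (1.89%) and 75 beyond 2-fold. B6 mice 1 to 4 and BLKS mice 1 to 4 of the same number shared a pair of arrays, whereas B6 mouse 5 was hybridised beside a low-glucose B6 mouse. When the shared array pair entered the fit as a block, 7647 probes were called. Read by gene, 14.9% were then higher in BLKS and 16.7% lower, and these shares are the background for list counts with the block. Of the 4124 called probes, 4054 had the same sign in all 4 array pairs, as had 12802 of all tested probes (45.9%). The pairs are made of mice that also set the calls, so their agreement is not separate support. All 36 probes that the study had listed for this comparison were tested and called, and they are left out of the ranking that follows. The study had chosen them for large differences in these same mice, so their calls are not independent support. Beside its glucose responses, the study also gave strain differences of Txnip and Nptx2 in these mice. Both genes stay in the ranking, and their differences were thus already reported.

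**Figure D1:**
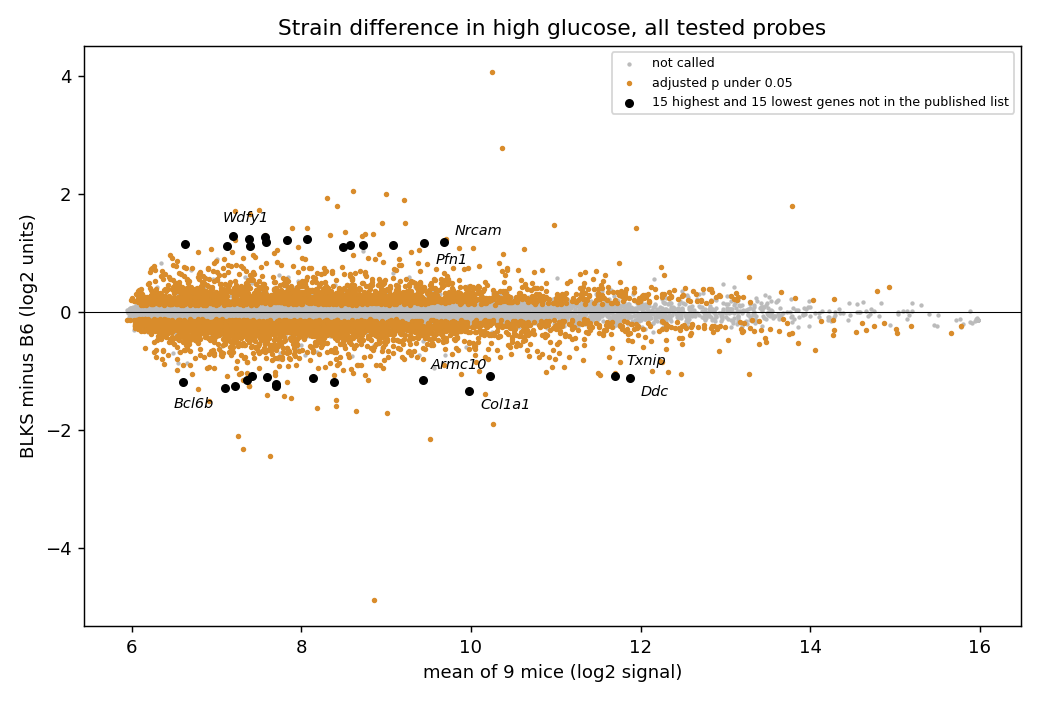
Each point is 1 of 27882 tested probes, with the mean log2 signal of the 9 mice on the horizontal axis and the difference, BLKS minus B6 in log2 units, on the vertical axis. Called probes are orange. Black points are the 15 highest and the 15 lowest genes outside the published list, among called genes whose groups do not overlap. They lie beyond 1.08 log2 units on either side.

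The first principal component held 49.0% of the variance over the tested probes and separated the strains, with B6 mice at -16.1 to -11.1 and BLKS mice at 15.2 to 17.5. The second held 16.5% and did not, with B6 mice at -7.14 to 13.4 and BLKS mice at -11.4 to 14.0. Mice 1 of both strains, which shared arrays, lay highest on it. Correlations across probes were 0.994 to 0.997 between mice of one strain and 0.988 to 0.993 between mice of different strains.

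Outside the published list, 50 genes differed more than 2-fold, 22 higher and 28 lower in BLKS. The ranking took only called genes whose groups do not overlap, as held for 2370 of the 2773 called genes. Lack of overlap in a ranked gene was therefore set by the choice and is not a separate finding. The genes that were higher ranged from housekeeping to secreted proteins. Wdfy1, an endosomal protein that binds phosphoinositides, had log2 signals of 6.59, 6.62, 6.58, 6.58 and 6.75 in the B6 mice and 7.88, 7.90, 7.91 and 7.92 in the BLKS mice. The strains did not overlap, and the 4 BLKS mice lay within 0.04 of one another. The difference was 1.28 ± 0.04 (adjusted p = 1.77e-08), although a second, dimmer probe of the gene read -0.08 (adjusted p = 0.35). Serinc2, a serine incorporator, was at 7.16, 6.94, 7.07, 7.05 and 6.77 in B6 and 8.30, 8.24, 8.21 and 8.35 in BLKS. No B6 mouse reached the BLKS range, and the difference was 1.28 ± 0.07 (adjusted p = 7.71e-07).

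Nptx2, a secreted pentraxin of neurons and endocrine cells, was at 7.59, 7.65, 7.40, 7.29 and 7.63 in B6 and 8.62, 9.20, 8.47 and 8.72 in BLKS, a difference of 1.24 ± 0.13. BLKS mouse 2 was the highest and all 4 BLKS mice exceeded every B6 mouse. Stra6, the receptor for retinol-binding protein, was at 8.23, 8.06, 8.15, 8.05 and 7.83 in B6 and 9.33, 9.01, 9.42 and 9.07 in BLKS. The difference of 1.15 ± 0.10 was free of overlap (adjusted p = 1.65e-05). Mbl2, a mannose-binding lectin of innate immunity, lay between 6.08 and 6.13 in all 5 B6 mice, close to background, and was at 7.72, 6.73, 6.92 and 7.68 in BLKS. The spread among the BLKS mice was thus wide (SD 0.51), and mice 1 and 4 were well above mice 2 and 3.

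Krt19, the keratin of duct cells, was at 6.98, 6.98, 6.88, 6.79 and 6.85 in B6 and 7.77, 8.32, 8.11 and 7.90 in BLKS, a difference of 1.13 ± 0.10 (adjusted p = 1.86e-05). Other genes above 2-fold with no overlap were the small heat shock protein Hspb8 (1.23), the actin-binding profilin Pfn1 (1.18), the phosphatase Dusp16 (1.18), which acts on stress kinases, the mitochondrial protein Nipsnap1 (1.14) and the oxysterol hydroxylase Cyp39a1 (1.12), whose second probe read 0.75. The ribosomal protein Rpl14 also differed by 1.22, which is uncertain because ribosomal proteins have many near-identical copies in the genome. For 3 others the difference stood on the brightest probe alone. The splicing factor Srrm3 read 1.15 on its brightest probe and between -0.07 and 0.02 on 3 dimmer probes, the Polycomb protein L3mbtl2 read 1.11 and 0.03, and the adhesion protein Nrcam read 1.18, 0.07 and -0.21. The dimmer probes of Srrm3 and Nrcam were close to background, where a difference is hard to see. The Nrcam probe at -0.21 was nevertheless called lower (limma, adjusted p = 0.00651), a call lost under 3 of 23 alternatives. The sequence of BLKS under each probe was not analysed here.

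The genes that were lower in BLKS included enzymes and receptors with known roles in islets. Ddc, the decarboxylase that makes serotonin and dopamine, was at 12.31, 12.28, 12.38, 12.75 and 12.14 in B6 and 11.26, 11.02, 11.27 and 11.49 in BLKS. The lowest B6 mouse was 0.65 above the highest BLKS mouse, and the difference was -1.11 ± 0.12 (adjusted p = 8.71e-05) with a second probe at -0.89. Nr1h4, the nuclear receptor for bile acids, was at 8.06, 8.02, 8.18, 8.05 and 8.08 in B6 and 7.05, 6.92, 7.03 and 6.94 in BLKS. The groups were far apart beside their spread, with SDs of 0.06 and 0.07 and a difference of -1.09 ± 0.05. Bcl6b, a transcriptional repressor, was at 7.75, 7.71, 7.79, 7.87 and 7.75 in B6 and 6.52, 6.45, 6.67 and 6.46 in BLKS, and Casp9, the initiator caspase of the mitochondrial death pathway, differed by -1.07 ± 0.04 (adjusted p = 1.77e-08).

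Txnip binds thioredoxin and is among the genes most induced by glucose in beta cells. It was at 11.86, 12.22, 12.21, 12.74 and 11.87 in B6 and 10.90, 10.89, 10.87 and 11.74 in BLKS. BLKS mouse 4 stood 0.84 above the other BLKS mice and just below the lowest B6 mouse, so the strains did not overlap. The difference was -1.08 ± 0.21 (adjusted p = 0.00532), and a second probe read -0.58 (adjusted p = 0.017). Other lower genes were the ring finger protein Rnf150 (-1.28), the membrane protease Tmprss2 (-1.25 and -0.36 on its 2 probes), the RNase P subunit Rpp14 (-1.22), the zinc finger gene Zfp277 (-1.16 and -0.31) and Armc10, on which 3 probes gave -1.18, -1.16 and -1.02. Ccdc184 (-1.18), Tmigd3 (-1.12) and Lyrm2 (-1.09) were lower too, with no overlap between the strains, as the ranking required. Rps4l (-1.09) resembles other ribosomal genes and is uncertain for that reason. Afm, a vitamin E-binding protein of plasma, read -1.19 on a probe that was above background in both dyes in only 2 of 4 BLKS mice, and -0.02 on another probe.

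**Figure D2:**
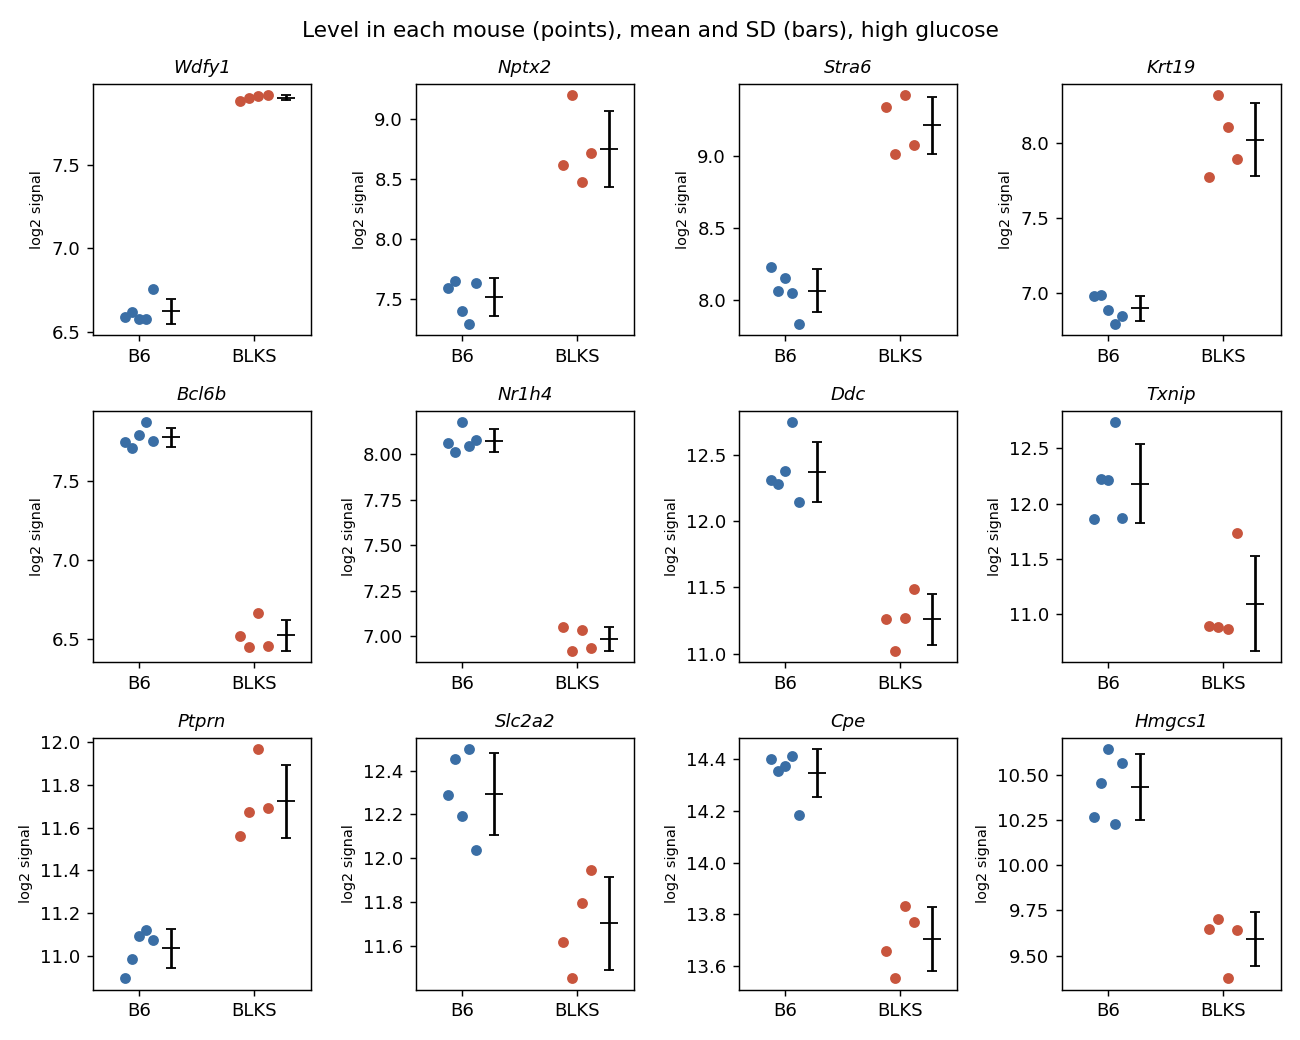
Log2 signal of 12 genes in each mouse, B6 in blue and BLKS in red, with bars for the mean and SD of 5 and 4 mice. In all 12 genes the strains do not overlap, which was a condition of the ranking and so is no separate finding for the ranked genes. BLKS mouse 4 lies apart from the other BLKS mice for Txnip. The vertical axes do not start at 0 and differ between panels.

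The unfolded protein response (UPR) matches the folding capacity of the ER to the load of new secretory proteins. Its sensors Ire1, Perk and Atf6 act through the transcription factors Xbp1, Atf4 and Atf6, which induce chaperones, disulfide isomerases, parts of the degradation machinery and, under lasting stress, genes that limit translation or favour cell death. Of 28 UPR genes tested, 15 were higher in BLKS and none was lower, where 7.95% of all genes were higher. The median difference of the list was 0.23, and 26 of 28 genes lay above 0. Beside this, the median of all genes was 0.01. The list's median in each mouse, relative to each gene's mean over the 9 mice, was -0.16, -0.11, -0.08, -0.08 and -0.06 in B6 and 0.10, 0.11, 0.15 and 0.14 in BLKS. The strains did not overlap, and the median difference within the 4 array pairs was 0.22 to 0.25.

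Many UPR genes are reached by Atf6 and Xbp1 through an ER stress response element. The promoters below, 250 bases before the start site from RefSeq (GRCm38.p6), belong to 4 of the 7 listed genes that hold it, and they are shown because Creld2, Dnajc3 and Hsp90b1 were called and Hspa5, the master chaperone, was not. Capitals mark the element, CCAAT and CCACG with 9 bases between them, on either strand.
Creld2, chr15:88819396-88819645, plus strand: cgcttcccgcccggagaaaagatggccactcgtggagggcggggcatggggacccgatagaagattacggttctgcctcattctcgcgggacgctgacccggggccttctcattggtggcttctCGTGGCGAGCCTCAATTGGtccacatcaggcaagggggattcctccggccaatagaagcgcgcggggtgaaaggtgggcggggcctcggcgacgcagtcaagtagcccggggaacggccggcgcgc
Dnajc3, chr14:118937682-118937931, plus strand: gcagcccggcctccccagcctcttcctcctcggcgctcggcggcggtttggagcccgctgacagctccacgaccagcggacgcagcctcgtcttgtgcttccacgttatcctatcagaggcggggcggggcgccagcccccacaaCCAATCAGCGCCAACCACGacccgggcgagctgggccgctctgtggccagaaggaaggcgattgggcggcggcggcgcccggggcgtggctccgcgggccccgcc
Hsp90b1, chr10:86705445-86705694, minus strand: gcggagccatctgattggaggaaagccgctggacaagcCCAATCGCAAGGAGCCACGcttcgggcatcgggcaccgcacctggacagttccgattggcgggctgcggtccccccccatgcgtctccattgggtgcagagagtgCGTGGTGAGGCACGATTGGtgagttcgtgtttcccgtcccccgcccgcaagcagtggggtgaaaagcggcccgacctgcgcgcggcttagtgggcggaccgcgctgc
Hspa5, chr2:34771840-34772089, plus strand: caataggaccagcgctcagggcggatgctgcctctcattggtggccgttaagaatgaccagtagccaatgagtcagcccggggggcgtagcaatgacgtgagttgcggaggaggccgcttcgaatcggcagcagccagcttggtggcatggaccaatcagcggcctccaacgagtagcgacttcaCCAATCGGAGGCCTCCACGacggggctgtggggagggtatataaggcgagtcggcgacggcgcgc
The element lies on the opposite strand in Creld2 and occurs on both strands in Hsp90b1. It was found in the bases from 250 before to 50 after the start in 7 of 25 UPR genes with a promoter in the table (Calr, Canx and Pdia6 as well) and in 0.162% of 12367 tested genes. Of the UPR genes with a promoter, 3 of 12 called genes held it and 4 of 13 that were not called.

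Among chaperones and their partners, Sdf2l1, a partner of the Hsp40-type chaperones of the ER, was at 11.91, 12.01, 12.05, 11.80 and 12.22 in B6 and 12.66, 12.59, 12.58 and 12.68 in BLKS. Each BLKS mouse was above each B6 mouse, by a mean of 0.63 ± 0.07 (adjusted p = 0.000165). Creld2, a secreted ER stress marker, was at 13.01, 13.03, 12.96, 12.91 and 13.18 in B6 and 13.78, 13.62, 13.41 and 13.61 in BLKS, a difference of 0.59 ± 0.07 (adjusted p = 0.000319). Dnajc3, which restrains Perk and assists folding, was at 11.49, 11.54, 11.66, 11.38 and 11.58 in B6 and 12.23, 11.88, 11.99 and 12.07 in BLKS. It differed by 0.52 ± 0.07, its 2 next brightest probes gave 0.47 and 0.50, and another gave -0.12 (adjusted p = 0.23). Hsp90b1, the Hsp90 of the ER, is among the brightest genes of the list and was at 14.59, 14.68, 14.63, 14.59 and 14.66 in B6 and 15.07, 14.92, 14.95 and 14.997 in BLKS. Its difference was small, 0.36 ± 0.04, and free of overlap (adjusted p = 0.000175).

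The isomerase Pdia4 differed by 0.41 ± 0.06, Dnajb11 by 0.33, the secreted survival factor Manf by 0.27 ± 0.06, the chaperone Hyou1 by 0.25 and Pdia3 by 0.19. Sel1l, which holds the ER degradation complex together, differed by 0.38 ± 0.10 on its brightest probe, and a dim second probe read 0.04. Its call was lost without B6 mouse 1 or 2 or BLKS mouse 3 or 4. Hspa5 was at 14.44, 14.52, 14.55, 14.65 and 14.59 in B6 and 14.70, 14.64, 14.85 and 14.66 in BLKS. These ranges touched, and the difference of 0.16 ± 0.05 was not called (adjusted p = 0.0707). Calr differed by 0.40 ± 0.13 (adjusted p = 0.061) on its brightest probe and by 0.27 (adjusted p = 0.00061) on another, and it was called with the array pair as a block (adjusted p = 0.01).

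Among the regulators, Trib3, a pseudokinase induced by Atf4, led the list. It was at 10.07, 10.01, 10.08, 10.18 and 9.95 in B6 and 10.55, 10.77, 11.03 and 10.66 in BLKS, with BLKS mouse 3 highest and no overlap. The difference was 0.69 ± 0.09 (adjusted p = 0.00027) and a second probe gave 0.46. Atf4 differed by 0.23 ± 0.06 (adjusted p = 0.0257), Atf6 by 0.28 ± 0.07 (adjusted p = 0.0264), the glutathione-degrading enzyme Chac1 by 0.24 and Ppp1r15a, which reverses the block on translation, by 0.21. The call of Atf4 was lost under 10 of 24 alternatives, among them the authors' log2 table and leaving out B6 mouse 1 or 3 or BLKS mouse 2 or 3. That of Atf6 was lost under 7 of 25, Cy3 alone and leaving out B6 mouse 2, 4 or 5 or BLKS mouse 1, 3 or 4. A dimmer probe of Atf6 read 0.38 with no overlap (limma, adjusted p = 0.00023). Ddit3, which encodes the death-linked factor Chop, differed by 0.23 ± 0.09 and was not called (adjusted p = 0.151). Xbp1, whose total mRNA does not show its splicing, differed by 0.11 ± 0.07 (adjusted p = 0.399, and 0.047 with the array pair as a block). The sensors Eif2ak3 (0.00) and Ern1 (0.05) were not called.

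With the array pair as a block, 19 UPR genes were higher and none lower, where 14.9% of all genes were higher and 16.7% lower. In the fit of all 19 mice with 4 groups, which includes 2 low-glucose libraries that go against their labels, 8 were higher.

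The cell cycle list went the other way. Cyclins D1 and D2 carry beta cells out of rest, the Mcm2 to Mcm7 helicase licenses replication, and Mki67, Birc5, Plk1, Aurka and Cdc20 mark or run mitosis. Of 26 genes tested, 16 were lower in BLKS and none higher, where 9.91% of all genes were lower, and the median difference was -0.21. The list's median in each mouse was 0.10, -0.01, 0.05, 0.16 and 0.18 in B6 and -0.13, -0.05, -0.18 and -0.09 in BLKS. The strains were apart, with B6 mouse 2 and BLKS mouse 2 nearest to each other. Within the array pairs the median difference was -0.25, -0.04, -0.22 and -0.24.

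Ccnd2, the D cyclin most tied to beta cell replication in mice, was at 11.65, 11.64, 11.65, 11.74 and 11.75 in B6 and 11.04, 10.63, 11.13 and 10.71 in BLKS. The B6 mice lay within 0.11 of one another and above every BLKS mouse, and the difference was -0.81 ± 0.09 (adjusted p = 0.000167). Its other probes gave -1.01 and -0.93. Ccnd1 was at 10.93, 10.88, 10.95, 10.98 and 10.97 in B6 and 10.29, 10.19, 10.38 and 10.35 in BLKS, a difference of -0.64 ± 0.05 (adjusted p = 4.95e-06). Mki67, the Ki-67 antigen of dividing cells, was at 7.69, 7.40, 7.50, 7.90 and 7.90 in B6 and 6.79, 7.07, 6.65 and 7.14 in BLKS. There was no overlap, but the lowest B6 mouse and the highest BLKS mouse were only 0.26 apart (difference -0.77 ± 0.13, adjusted p = 0.00192).

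The promoters of Mki67 and Cdc20 are shown as examples of called genes that carry the cell cycle homology region, a short element through which many mitotic genes are held off outside division. They are the 250 bases before the start site from RefSeq (GRCm38.p6), with the element, TTTGAA on either strand, in capitals.
Mki67, chr7:135716380-135716629, minus strand: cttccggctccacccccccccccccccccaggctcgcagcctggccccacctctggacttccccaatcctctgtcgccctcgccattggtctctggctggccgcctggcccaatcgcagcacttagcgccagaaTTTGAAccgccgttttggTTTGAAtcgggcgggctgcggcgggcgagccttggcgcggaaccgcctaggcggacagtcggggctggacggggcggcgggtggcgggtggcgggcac
Cdc20, chr4:118437344-118437593, minus strand: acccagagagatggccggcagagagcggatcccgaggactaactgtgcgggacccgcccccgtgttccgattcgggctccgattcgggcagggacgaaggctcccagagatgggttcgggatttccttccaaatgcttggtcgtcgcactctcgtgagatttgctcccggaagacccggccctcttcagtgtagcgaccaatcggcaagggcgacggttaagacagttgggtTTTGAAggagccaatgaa
It occurred from 250 before to 50 after the start in 8 of 22 cell cycle genes with a promoter (Aurka, Ccnb2, Cdc20, Cdk1, Mcm2, Mki67, Plk1 and Top2a) and in 15.6% of 12367 tested genes. Of those called, 6 of 12 held it, and 2 genes that were not called held it too.

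Birc5, the survivin of the mitotic spindle, was at 7.58, 7.23, 7.30, 7.51 and 7.51 in B6 and 6.99, 7.02, 6.60 and 6.999 in BLKS. BLKS mouse 3 was the lowest and the difference was -0.53 ± 0.10 (adjusted p = 0.00427). Of the replication helicase, Mcm5 differed by -0.48 ± 0.08, Mcm3 by -0.45 ± 0.09, Mcm6 by -0.39, Mcm4 by -0.32, Mcm7 by -0.26 and Mcm2 by -0.18, so all 6 subunits were called lower. The mitotic kinase Plk1 differed by -0.37 ± 0.10, cyclin A2 (Ccna2) by -0.36 ± 0.08, Cdc20 by -0.29 and Aurka by -0.23. Top2a, which untangles replicated DNA, gave -0.18 close to background and only just passed (adjusted p = 0.0486), and it was lost on leaving out any single mouse but B6 mouse 2. The call of Plk1 was lost without B6 mouse 4 or 5 or BLKS mouse 1 or 3. The polymerase clamp Pcna differed by -0.08 ± 0.05 and was not called (adjusted p = 0.406), and neither were Cdk1 (-0.13), Ccnb1 (-0.14), Rrm2 (-0.09) and Cdk4 (0.01). The cell cycle inhibitor Cdkn1a, from the p53 list, was at 8.02, 7.86, 8.06, 7.96 and 7.95 in B6 and 8.24, 8.34, 8.51 and 8.25 in BLKS. It was higher in BLKS by 0.36 ± 0.06 with no overlap (adjusted p = 0.00223), while the inhibitors Cdkn1b (-0.03) and Cdkn2c (0.00) were not called.

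Leaving out B6 mouse 4 left 10 cell cycle genes lower, and the fit of all 19 mice left 10. The values with no scaling between arrays and the authors' log2 table each gave 8. The cells in which these genes were expressed were not determined, and in bulk islets fewer cells of a type and less RNA per cell cannot be told apart.

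**Figure D3:**
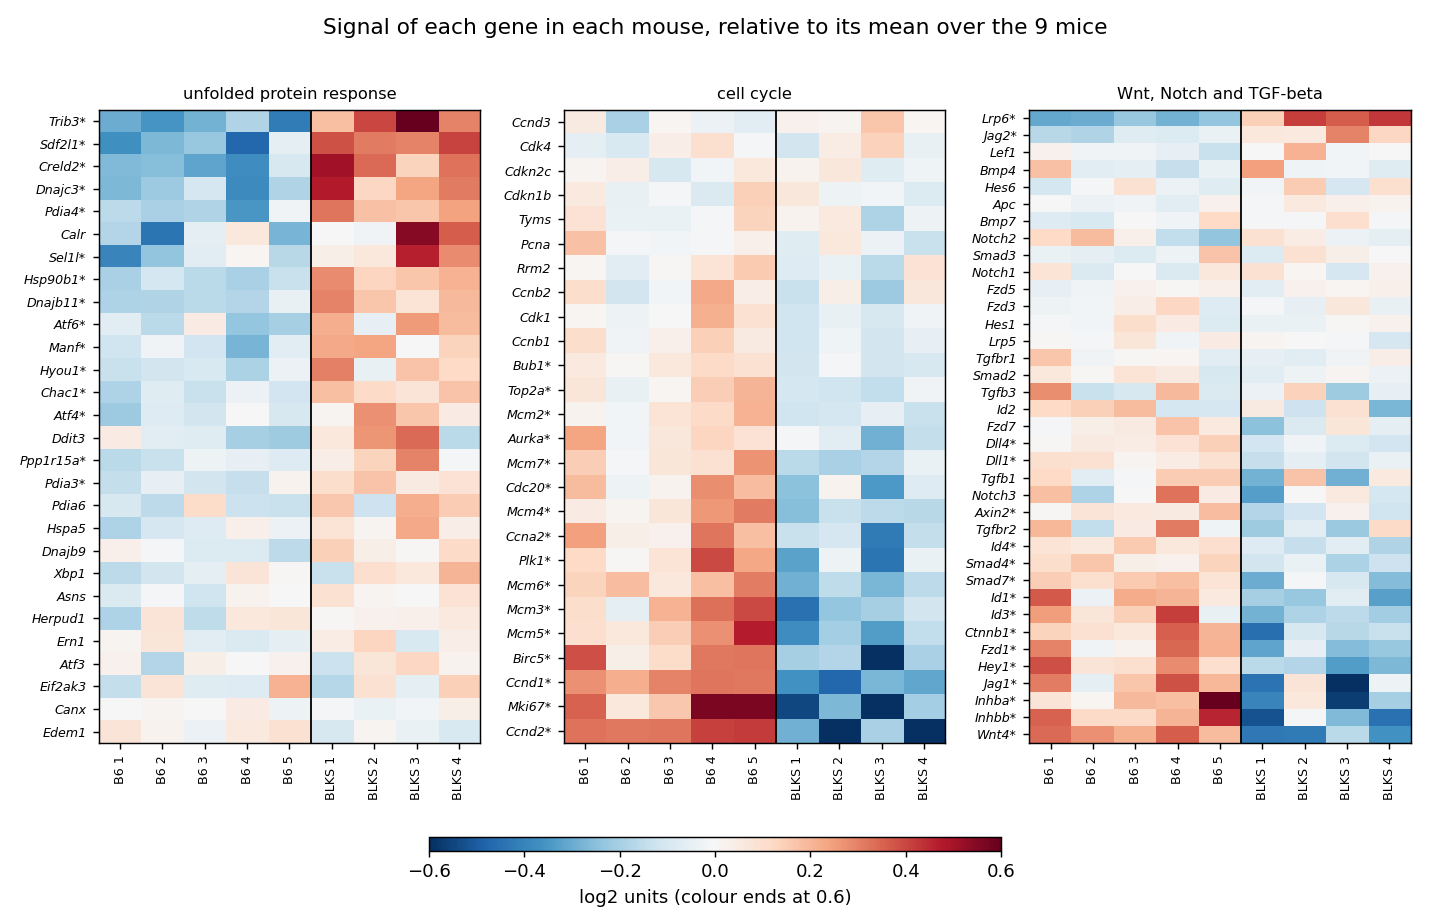
Colour gives the log2 signal of each gene in each of 5 B6 and 4 BLKS mice, relative to that gene's mean over the 9 mice, for the UPR, the cell cycle and the Wnt, Notch and TGF-beta lists. Genes are ordered by difference, asterisks mark called genes, and 15 UPR genes are called higher while 16 cell cycle genes and 15 signalling genes are called lower in BLKS.

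Wnt, Notch and TGF-beta signals govern growth and identity in many tissues. Of 37 genes of these pathways, 15 were lower in BLKS and 2 were higher, with a median difference of -0.14 (-0.09 without BLKS mouse 1). Among the ligands, Wnt4 was at 10.04, 9.97, 9.91, 10.06 and 9.89 in B6 and 9.27, 9.27, 9.54 and 9.33 in BLKS. Its groups were separate (difference -0.62 ± 0.06, adjusted p = 5.52e-05). The activin subunit Inhbb differed by -0.56 ± 0.11 on its brightest probe, but a dimmer probe read 0.49 in the other direction (adjusted p = 0.0065). Inhba (-0.49 ± 0.14) and the Notch ligand Jag1 (-0.45 ± 0.14) passed with overlapping groups, and both were lost with the array pair as a block (adjusted p = 0.06 and 0.076). The call of Inhba was also lost without B6 mouse 3, 4 or 5 or BLKS mouse 1, 3 or 4, and that of Jag1 without B6 mouse 1, 3, 4 or 5 or BLKS mouse 1 or 3. The Notch ligands Dll1 and Dll4 each gave -0.15 and were called. Jag2, another Notch ligand, was higher in BLKS by 0.24 ± 0.06.

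Among receptors, Fzd1 was lower (-0.38 ± 0.08), whereas the Wnt co-receptor Lrp6 was higher. Lrp6 was at 6.04, 6.05, 6.12, 6.06 and 6.11 in B6 and 6.49, 6.76, 6.71 and 6.77 in BLKS, a difference of 0.61 ± 0.06 (adjusted p = 3.64e-05), and its probe was above background in both dyes in 2 of 5 B6 mice. Downstream, beta-catenin (Ctnnb1) was at 11.03, 10.98, 10.95, 11.25 and 11.09 in B6 and 10.44, 10.79, 10.72 and 10.76 in BLKS. The strains did not overlap, and 3 probes gave -0.38, -0.42 and -0.35. The Notch target Hey1 differed by -0.42 ± 0.07, the Wnt target Axin2 by -0.17, and the BMP targets Id1 and Id3 by -0.37 ± 0.08 and -0.38 ± 0.08. Smad7 gave -0.30 and Smad4 -0.21. The receptors Notch1 (0.01), Notch2 (0.02) and Tgfbr1 (-0.04), the transducers Smad2 (-0.05) and Smad3 (0.02) and the Notch target Hes1 (-0.02) were not called. With no scaling between arrays 8 genes of the list were lower, and 6 were with the authors' log2 table.

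Among markers of the supporting cells of the islet, more endothelial and fibroblast genes were lower than higher in BLKS. Of 12 endothelial genes, 7 were lower and 1 was higher, with a median difference of -0.25. Eng, a TGF-beta co-receptor of vessels, was at 8.14, 7.71, 7.86, 8.07 and 7.92 in B6 and 7.37, 7.50, 7.02 and 7.55 in BLKS. All BLKS mice were below all B6 mice (difference -0.58 ± 0.11, adjusted p = 0.00548). Cdh5, the cadherin of endothelial junctions, differed by -0.46 ± 0.07, the clotting factor carrier Vwf by -0.42 ± 0.05 and the VEGF receptor Kdr by -0.37 ± 0.07. Pecam1, close to background on its probe, gave -0.08 ± 0.05 and was not called. Ramp2, a receptor partner for adrenomedullin, was higher by 0.50 ± 0.05 on its brightest probe and read -0.29 on a second (adjusted p = 0.12). The summed signal of the 12 genes was 3318 to 3696 in B6 and 2969 to 3352 in BLKS, so the sums overlapped. Within the array pairs the median difference was -0.39, 0.00, -0.30 and -0.32.

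The 11 markers of stellate cells or fibroblasts had 5 genes lower and none higher, and a median difference of -0.36. Col1a1, the main chain of fibrillar collagen, was at 11.04, 9.95, 10.16, 11.30 and 10.42 in B6 and 8.93, 9.83, 8.29 and 9.89 in BLKS. The lowest B6 mouse and the highest BLKS mouse were 0.06 apart and the SDs were 0.58 and 0.77. The difference was -1.34 ± 0.36 (adjusted p = 0.0273), with a second probe at -0.80 (adjusted p = 0.066). It was not called without B6 mouse 1, B6 mouse 4, BLKS mouse 1 or BLKS mouse 3. Col1a2 was at 10.75, 9.83, 10.02, 11.04 and 10.14 in B6 and 9.10, 9.66, 8.61 and 9.83 in BLKS. One BLKS mouse reached the lowest B6 mouse (difference -1.05 ± 0.29, adjusted p = 0.0298), and the call was likewise lost without any of the same 4 mice.

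Sparc, a matrix glycoprotein, was at 9.55, 8.80, 9.13, 9.74 and 9.14 in B6 and 8.21, 8.55, 7.92 and 8.85 in BLKS. It overlapped between B6 mouse 2 and BLKS mouse 4 and differed by -0.89 ± 0.21 (adjusted p = 0.015). The summed signal of the list was 4588 to 8765 in B6 and 2537 to 4464 in BLKS. The list's median was 0.43, -0.06, 0.02, 0.39 and 0.18 in the B6 mice and -0.30, -0.06, -0.56 and -0.09 in the BLKS mice, so B6 mouse 2 and BLKS mouse 2 were alike. Within the array pairs it was -0.72, -0.05, -0.51 and -0.45. Leaving out B6 mouse 1, B6 mouse 4, BLKS mouse 1 or BLKS mouse 3 left 2 genes called in each case.

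Over the wider list of 73 collagens, laminins and matrix genes, 23 were lower and 3 higher, with a median of -0.16. Timp1, an inhibitor of matrix proteases, was at 10.79, 10.10, 10.25, 10.76 and 10.80 in B6 and 9.24, 10.09, 8.85 and 10.01 in BLKS. The groups nearly met (difference -0.99 ± 0.25, adjusted p = 0.0222), and the call was lost without B6 mouse 1, 4 or 5 or BLKS mouse 1. Collagens of basement membranes (Col4a1, -0.55) and of fibrils (Col5a1, -0.90, and Col5a2, -0.81), the laminin Lamb1 (-0.45) and the nidogen Nid1 (-0.61) were among those lower. Col16a1 (0.51) was among those higher. The count of 23 fell to 9 without B6 mouse 1 or B6 mouse 4, to 14 without B6 mouse 5, to 8 without BLKS mouse 1 and to 10 without BLKS mouse 3. The fibroblast, endothelial, matrix, cell cycle and signalling lists had their smallest difference in the same array pair, that of mice 2, and the part of fibroblast or endothelial content in the cell cycle and signalling differences was not tested.

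Of 12 macrophage genes 2 were lower, with a median of 0.00. The lysozyme Lyz2 was at 11.28, 11.43, 10.93, 11.36 and 10.71 in B6 and 10.32, 10.56, 10.07 and 10.57 in BLKS. It was lower in every BLKS mouse (difference -0.76 ± 0.15, adjusted p = 0.00651), while a dim second probe read -0.21. The complement gene C1qa gave -0.38 ± 0.09, whereas its partners C1qb (0.00) and C1qc (0.04), Cd68 (0.12) and Csf1r (0.07) were not called. The summed signal was 4634 to 6319 in B6 and 3875 to 4754 in BLKS. Of 12 duct genes 5 were higher and 1 was lower, with a median of 0.10. Beside Krt19, these were Krt8 (0.31 ± 0.07), Krt18 (0.18), Epcam (0.28 ± 0.07) and the published gene Spp1 (1.79). Tspan8 was lower (-0.39 ± 0.09), and Krt7 (0.00), Car2 (0.02) and Sox9 (0.15) were not called. Without any one of B6 mouse 1, B6 mouse 2, BLKS mouse 3 or BLKS mouse 4, 3 duct genes were called higher, and Epcam was not. Cela1, an elastase of acinar cells, was higher by 0.74 ± 0.11 as the single called gene of 11 acinar markers.

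**Figure D4:**
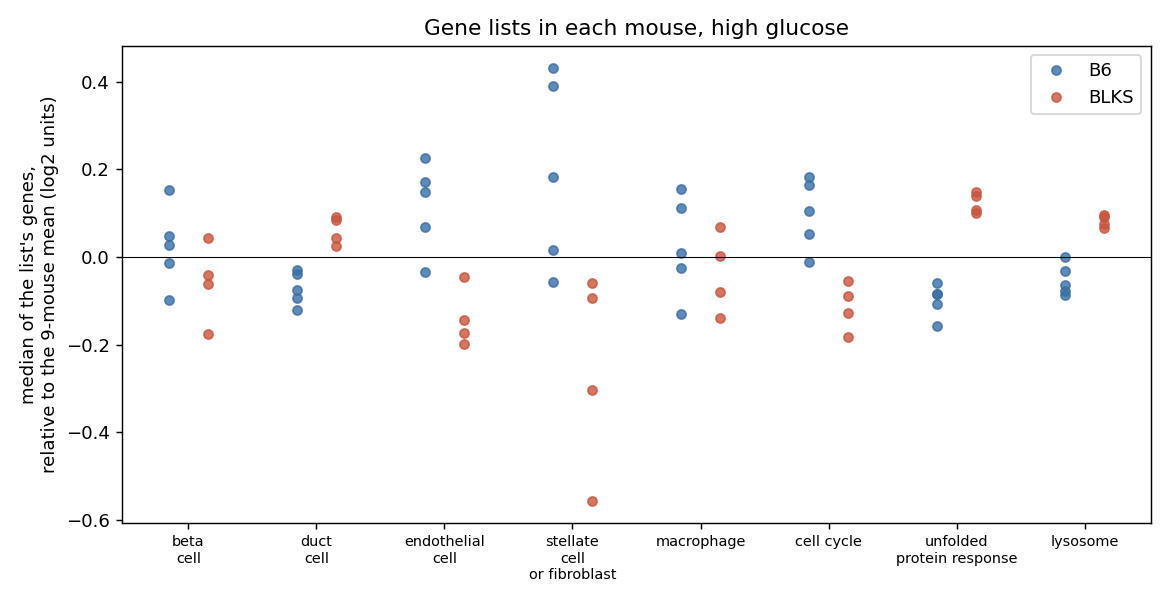
Each point is 1 mouse, B6 in blue and BLKS in red, and gives the median over a list's genes of the log2 signal relative to each gene's mean over the 9 mice. The unfolded protein response and lysosome lists lie higher in all 4 BLKS mice, the cell cycle list lies lower, and the beta cell and macrophage lists overlap between the strains.

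Genes that define endocrine cells are set beside the 17.9% of all genes that were called, and the saturated ones could not be compared. Of 12 beta cell genes, of which Ins1, Ins2 and Iapp were saturated, 1 was higher and 1 lower, and without the saturated genes the median was -0.06. Slc2a2, the glucose transporter GLUT2, was at 12.29, 12.45, 12.19, 12.50 and 12.04 in B6 and 11.62, 11.45, 11.79 and 11.94 in BLKS. It was lower in every BLKS mouse (difference -0.59 ± 0.11, adjusted p = 0.0044), and a second probe gave -0.31 (adjusted p = 0.095). Pdx1, the homeodomain factor that maintains beta cells, was at 8.38, 8.46, 8.44, 8.54 and 8.45 in B6 and 8.84, 8.83, 8.91 and 8.84 in BLKS, higher by 0.40 ± 0.04 (adjusted p = 6.21e-05). Mafa (-0.06 ± 0.07), Nkx6-1 (0.00), G6pc2 (0.13), Slc30a8 (-0.19) and Ucn3 (-0.24) were not called.

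Of 9 alpha cell markers 2 were lower. Gc, the vitamin D-binding protein, which alpha cells also make, was at 10.56, 10.71, 10.69, 10.56 and 10.94 in B6 and 10.19, 10.11, 9.99 and 10.22 in BLKS. No values were shared between the strains (difference -0.57 ± 0.08, adjusted p = 0.000672). The factor Irx2 gave -0.23 ± 0.06, a call lost without B6 mouse 3 or 5 or BLKS mouse 1, 2 or 4. Fxyd6, a regulator of the sodium pump listed as a PP cell marker, was at 11.88, 11.91, 11.98, 12.11 and 12.12 in B6 and 10.84, 10.70, 11.31 and 10.85 in BLKS. It was lower in all BLKS mice (difference -1.07 ± 0.11, adjusted p = 5.91e-05). Ghrl, the ghrelin gene of epsilon cells, gave -0.70 ± 0.12 with a second probe at -1.04, and Calca, which encodes calcitonin and CGRP, was higher by 0.51 ± 0.07.

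Insulin granules are loaded with prohormones that convertases cut and carboxypeptidase E trims. Of 13 granule and processing genes 4 were higher and 4 lower, and 2 were saturated. The receptor-like granule protein Ptprn was at 10.90, 10.99, 11.09, 11.12 and 11.08 in B6 and 11.56, 11.68, 11.97 and 11.69 in BLKS. The strains were 0.44 apart at their nearest mice (difference 0.69 ± 0.08, adjusted p = 0.000136). The convertase Pcsk1 was higher by 0.39 ± 0.09, the amidating enzyme Pam by 0.51 ± 0.10 and the granin Scg3 by 0.42 ± 0.06. On the other side, carboxypeptidase E (Cpe) was at 14.40, 14.36, 14.37, 14.41 and 14.19 in B6 and 13.66, 13.55, 13.83 and 13.77 in BLKS. All BLKS mice were below all B6 mice (difference -0.64 ± 0.06, adjusted p = 6.17e-05), with a second probe at -0.52. Scg5, the chaperone of the saturated convertase Pcsk2, gave -0.43 ± 0.05, the calcium-binding secretagogin Scgn -0.63 ± 0.10, and Pcsk1n, an inhibitor of Pcsk1, gave -0.34.

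In the list for glucose sensing and calcium, 3 of 16 genes were lower and 1 was higher. The glucagon receptor Gcgr was at 10.68, 10.81, 10.75, 10.88 and 10.47 in B6 and 10.25, 9.91, 9.98 and 10.37 in BLKS. The difference was -0.59 ± 0.10 with no overlap (adjusted p = 0.00286). The inositol trisphosphate receptor Itpr3 gave -0.58 ± 0.06 in BLKS. The calcium channel Cacna1c was higher by 0.21 ± 0.04 on its brightest probe, and a dimmer probe read 0.03 (adjusted p = 0.73). Its call was lost under 3 of 25 alternatives, namely no scaling between arrays, Cy5 alone and the authors' log2 table. Kcnj11, the pore of the ATP-sensitive channel, gave 0.12 ± 0.06 and the incretin receptor Glp1r gave 0.11 ± 0.04. Neither was called (adjusted p = 0.213 and 0.108), and both were with the array pair as a block (0.022 and 0.013). Of 21 islet transcription factors, a list that leaves out Mafa, Nkx6-1 and the higher Pdx1, which were counted with the beta cell genes, 4 were lower and none higher. These were Gata6 (-0.55 ± 0.07), Rfx6 (-0.34 ± 0.05), Myt1 (-0.34 ± 0.05) and Mlxipl, described with the metabolic genes. Foxo1, from the insulin signalling list, was also lower (-0.25 ± 0.06).

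Among metabolic lists, cholesterol synthesis had 5 of 20 genes lower and none higher, with a median of -0.15. The median was -0.09 without BLKS mouse 2 and -0.07 when each gene was read by the mean of all its tested probes. The pathway starts from acetyl-CoA. Hmgcs1, the synthase of an early step, was at 10.27, 10.46, 10.64, 10.23 and 10.57 in B6 and 9.65, 9.70, 9.37 and 9.64 in BLKS. The lowest B6 mouse was 0.53 above the highest BLKS mouse (difference -0.84 ± 0.09, adjusted p = 0.000143). The isomerase Idi1 gave -0.52 ± 0.08. Cyp51 gave -0.23 ± 0.07 on its brightest probe alone, and its dimmer probes read -0.04 (adjusted p = 0.76) and -0.01 (adjusted p = 0.98). Its call was lost under 13 of 25 alternatives, among them the array pair as a block (adjusted p = 0.07) and leaving out B6 mouse 1, 2, 3 or 5 or BLKS mouse 1, 3 or 4. The regulator Srebf2 gave -0.19 ± 0.09 (adjusted p = 0.185, and 0.023 with the block), and Sqle (0.10) and Fdft1 (0.14) were not called. The median within array pairs was 0.05, -0.08, -0.25 and -0.01.

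Of 20 glycolytic genes 1 was higher and 2 lower. The published gene Eno2 differed by 1.32, and Pfkfb2, which sets the level of an activator of phosphofructokinase, gave -0.29 ± 0.07. The glycolysis median was 0.13 but ranged from -0.25 to 0.67 within the array pairs. Of 31 genes of pyruvate use and the citric acid cycle 5 were lower and 1 higher. Fumarase (Fh1) was at 12.90, 12.82, 12.63, 12.63 and 12.70 in B6 and 12.32, 12.17, 12.21 and 12.06 in BLKS. There was no overlap (difference -0.55 ± 0.07, adjusted p = 0.000302). The pyruvate dehydrogenase subunit Pdhb gave -0.41 ± 0.06, and the succinate dehydrogenase subunits Sdhb and Sdhd gave -0.40 ± 0.05 and -0.36 ± 0.04. The transaminase Got1 of the malate-aspartate shuttle was higher by 0.16 ± 0.04, a call that was lost under 11 of 24 alternatives. In fatty acid oxidation Acadl was lower (-0.68 ± 0.05) and Eci1 higher (0.55 ± 0.06), with 4 genes lower and 2 higher of 19. The count of lower genes was 7 with the array pair as a block, where 16.7% of all genes were lower. It was 1 with the authors' log2 table and 2 without BLKS mouse 1. Leaving out any single mouse other than B6 mouse 5 left 1 gene higher. Mlxipl, the carbohydrate-response factor ChREBP, was at 10.98, 11.11, 10.85, 11.32 and 11.08 in B6 and 10.39, 10.23, 10.49 and 10.54 in BLKS. It was lower in every BLKS mouse (difference -0.65 ± 0.09, adjusted p = 0.000585), with a second probe at -0.60. The phosphatidate phosphatase Lpin1 gave -0.08 on its brightest probe and -1.25, -0.94 and -0.81 on 3 others.

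Lysosomes digest proteins, lipids and sugars and take part in the removal of old insulin granules. Of 35 genes 14 were higher and 2 lower in BLKS, with a median of 0.12. With the array pair as a block 5 were lower, where 16.7% of all genes were lower. Without B6 mouse 4 or BLKS mouse 1 the lower genes numbered 1. The membrane protein Scarb2 was at 11.33, 11.06, 11.41, 11.38 and 11.35 in B6 and 11.85, 11.78, 12.15 and 11.93 in BLKS. It was higher in each BLKS mouse (difference 0.62 ± 0.09, adjusted p = 0.000611) and a second probe also gave 0.62. Alpha-galactosidase (Gla) was higher by 0.69 ± 0.10 on its brightest probe and read 0.04 on a dim one. The cathepsins Ctsl and Ctsb were higher by 0.36 ± 0.06 and 0.33 ± 0.07. Beta-galactosidase (Glb1) was at 8.50, 8.51, 8.69, 8.73 and 8.75 in B6 and 7.91, 7.97, 8.03 and 8.04 in BLKS, with a difference of -0.65 ± 0.06 (adjusted p = 3.66e-05) with a second probe at -0.39.

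Metallothioneins and zinc transporters had 5 of 21 genes higher and none lower, among them the zinc importer Slc39a1 (0.35 ± 0.08). The circadian list had 3 of 19 lower and 1 higher. Klf10 was at 9.37, 9.31, 9.22, 9.51 and 9.25 in B6 and 8.32, 8.41, 8.34 and 8.67 in BLKS, a difference of -0.90 ± 0.08 with no overlap (adjusted p = 2.46e-05). Of 28 genes of insulin and leptin signalling 5 were lower and 2 higher. Apoptosis and p53 genes (3 higher and 3 lower of 26), heat shock proteins (2 and 2 of 19), proteasome (5 and 2 of 39), ion channels (12 and 10 of 109) and genes of exocytosis (4 and 6 of 30) each had calls in both directions.

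**Figure D5:**
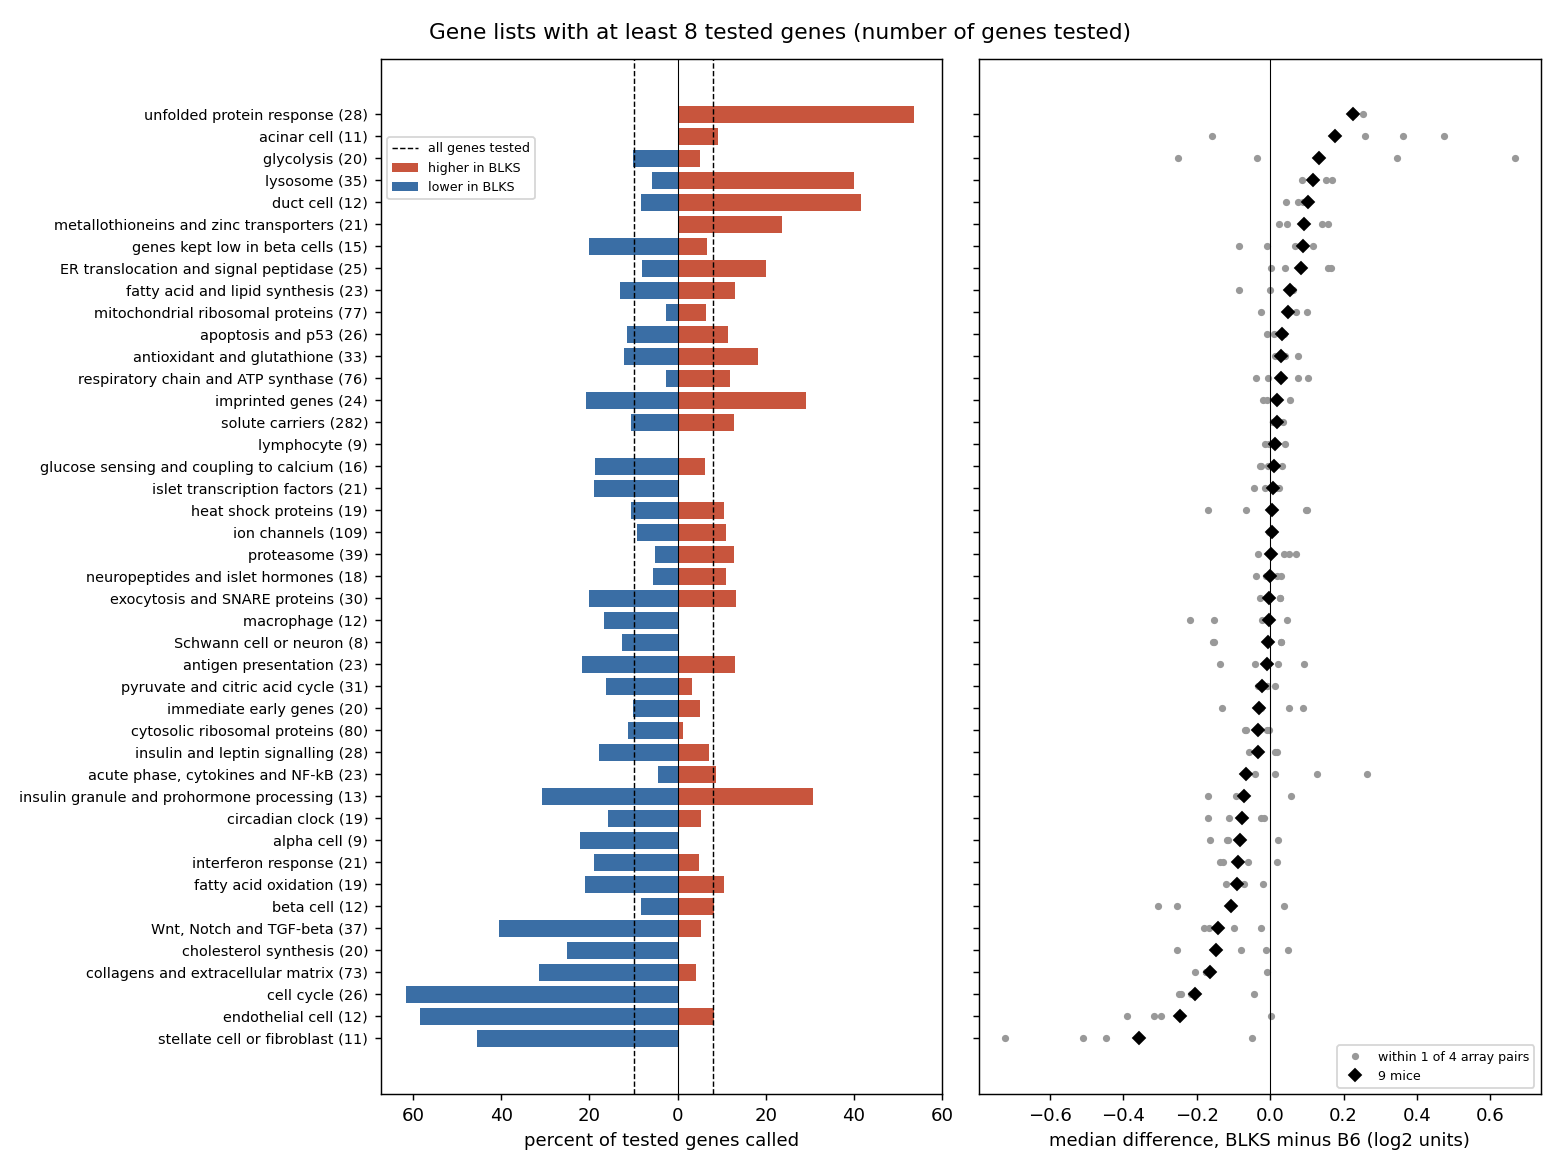
The left panel gives, for each list with at least 8 tested genes, the percent called higher (red) and lower (blue) in BLKS, with dashed lines at the shares of all genes, 7.95% and 9.91%. The right panel gives the median difference over the 9 mice (diamonds) and within each of 4 array pairs (grey points), which lie within 0.22 to 0.25 for the unfolded protein response and spread from -0.25 to 0.67 for glycolysis.

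Called genes were spread over all chromosomes. The share called ran from 13.1% of 1339 genes on chromosome 7 to 23.7% of 772 on chromosome 17, leaving aside chromosome Y with 2 of 7. Neighbouring tested genes that were all called formed 3 runs of 6 genes, 8 of 5, 24 of 4 and 80 of 3. The run on chromosome 17 held Pla2g7, Tdrd6, Slc25a27, Cyp39a1, Rcan2 and Enpp5, with differences from -0.33 to 1.12 and 4 of 6 higher. Pla2g7, a lipase for oxidised phospholipids, gave 0.33 ± 0.06, and Enpp5 -0.33 ± 0.08. In this run the call of Rcan2 was lost under 10 of 25 alternatives, among them leaving out B6 mouse 2 or 4 or BLKS mouse 2 or 4, and that of Enpp5 under 3 of 24, among them leaving out BLKS mouse 4. The run on chromosome 8 held Rfxank, Nr2c2ap, Borcs8, Mef2b, Tmem161a and Armc6 with 5 higher, and that on chromosome 9 held Glb1l2, Acad8, Thyn1, Vps26b, Ncapd3 and Jam3 with 3 higher. All 5 genes of a run on chromosome 16 (Alg3, Eef1akmt4, Camk2n2, Ece2 and Psmd2) were higher, although the call of Psmd2 was lost under 12 of 25 alternatives, among them leaving out B6 mouse 1, 2, 4 or 5 or BLKS mouse 1, 3 or 4. Ece2, an endothelin-converting enzyme, was at 7.13, 7.17, 7.11, 7.17 and 7.16 in B6 and 7.58, 7.61, 7.62 and 7.59 in BLKS, and these groups were tight and separate (difference 0.45 ± 0.03). The other run of 5 on chromosome 16, Cbr1, Cbr3, Dop1b, Morc3 and Chaf1b, had 2 higher and 3 lower. Most other genes of these runs were not followed through the alternatives. Which BLKS segments these runs lie in was not analysed here.

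Several probes read the same gene for 5724 genes. Of these, 1604 had a called probe, 271 had all probes called in 1 direction, 1286 had some called in 1 direction and 47 had probes called in opposite directions. Arfgef3 read -0.95 and 0.66 on 2 probes and -0.01 and 0.01 on the others. Tmem117 read -0.67 and 0.79, and the called probes of Msi2 read -0.77 and 0.33. Atf7ip read -0.49, 0.61 and 0.47 on its called probes and 0.05 on another. The called probes of Nrcam, named above, read 1.18 and -0.21. H2-Q1 of the published list had -4.88 and 0.61 on its called probes and -0.05 on another. A difference read by 1 probe is therefore a difference of that probe's target. Values of other probes are given above for some genes only, so their absence does not mean that all probes agreed. Gata6 read -0.06 and 0.01, Ctsb -0.06 and Irx2 -0.15 and -0.04 on other probes, none of them called.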

How the data were processed

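Islet RNA of each mouse, 200 ng, had been amplified, labelled with Cy3 and Cy5 and hybridised to 2-colour Agilent mouse arrays, 2 arrays per mouse with the dyes exchanged. The deposited scanner intensity values come from Agilent Feature Extraction, 9.5.3.1 per the file headers and 8.1 per the labels, with linear and LOWESS dye normalization within the array and no background subtraction, so that folds of dim probes are understated. The authors also deposited a log2 table of 1 value per mouse, averaged over the dyes and not scaled between arrays, which served as an alternative. All columns used belong to mice of the series.

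From the intensities of the 10 arrays that hold the 9 high-glucose mice, control spots and spots flagged as outliers were left out. Intensities were scaled by Aquantile in limma 3.58.1 (R 4.3.3), spots and then dyes were averaged, and 27882 probes whose spots passed Agilent's background flag in each dye for 4 or more of the 9 mice were tested with lmFit, eBayes and Benjamini-Hochberg adjustment at 0.05. Because Cy3 called 25.5% to 100% of negative controls above background and Cy5 0% to 1.27%, the filter rests on Cy5. Between 12 and 28 spots per channel were saturated. The 9 mice alone were fitted, since 2 low-glucose libraries go against their labels, whereas the methods fit 4 groups together. Mice were kept apart from isolation to labelling, and p-values rest on 1 value per mouse. The main fit had no term for shared arrays, so its spread holds variation between array pairs as well as between mice. Same-numbered mice of both strains shared arrays and deviated together (r = 0.355 to 0.678 for 4 pairs, median -0.17 for other pairs). The smallest two-sided exact permutation p for 9 mice is 0.00794 (126 divisions).

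Probes were matched to genes by RefSeq names, and 82.9% of tested probes matched 1 gene. The genes to name were the 15 highest and 15 lowest called genes whose groups do not overlap, outside the published list, up to 4 called genes and the first 2 of each list, the genes of the 5 longest runs and 6 genes with opposed probes. Some genes that the rule takes in are not reported here. Other genes named were chosen after their values were seen. Gene lists are described by counts and medians with no set test. The members and lists were chosen with earlier results of these data known. Scripts were tested on simulated data. Alternatives were the filter on dim probes, background correction, scaling, outlier flags, single dyes, the authors' table, other sets of mice, the methods' linear model, the array pair as a block, leaving out each mouse and, for lists, the mean of all probes of a gene.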

Additional observations from a re-analysis of the deposited data

Results flagged for a closer look

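Single mice that lay far from the rest of their group were looked for in 328 sets of 4 or 5 values, and 14 sets held one, where chance gives about 1 in 20. All values are log2 signals.

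Among the B6 mice, B6 mouse 5 was the highest for Wdfy1 at 6.75 (group median 6.59), the lowest for Cpe at 14.19 (14.37) and the highest for an Arfgef3 probe at 7.59 (7.35). B6 mouse 1 was the highest for Pcna at 9.83 (9.65) and the lowest for Kcnj11 at 7.81 (8.02). B6 mouse 4 was the highest for Pcsk1 at 12.76 (12.54), and B6 mouse 2 the lowest for Scarb2 at 11.06 (11.35).

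Among the BLKS mice, BLKS mouse 4 was the highest for the glucose-responsive gene Txnip at 11.74 (10.89). BLKS mouse 3 was the lowest for the mitotic genes Birc5, at 6.60 (6.997), and Ccna2, at 6.42 (6.71), and for Rfx6 at 8.71 (8.86), and the highest for Ghrl at 6.76 (6.53). BLKS mouse 2 was the highest for Krt8 at 12.60 (12.39) and the lowest for Pcsk1 at 12.67 (13.03).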

How the results depend on the processing

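The 4124 calls stayed between 2980 and 4467 under the filters on dim probes, normexp, quantile or 75th percentile scaling, kept outlier spots, either dye alone and both fits of 4 groups. They came to 2206 with no scaling between arrays, 1962 with the authors' log2 table, 6550 with the linear model of single-dye values, 7647 with the array pair as a fixed replicate block and 9243 as a random replicate block. Leaving out 1 mouse gave 3137 to 3890. Of the 4124 called probes, 4058 were also called with the fixed block and 1928 with the authors' table. Calls beyond 2-fold, 106, stayed between 98 and 114 under every alternative. The share of calls that were higher in BLKS was 44.2%, and 40.6% to 49.7% over the alternatives.

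Of 141 called gene results followed through the alternatives, 99 were kept by all, 42 were lost under at least 1 and 0 reversed. Beside those named in the text, the array pair as a block ended no further call among these. The number of mice limits the precision, and the saturated hormone genes have only a lower bound in both strains.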

Other observations

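Genes were ranked by their pooled SD between mice of the same strain, and the first 10 are given here. Lrg1, a plasma glycoprotein of the acute phase, had an SD of 1.13 log2 units in B6 and 0.48 in BLKS, and the chemokine Ccl2 had 1.16 and 0.31. The spread was also larger in B6 for the calcium-binding protein S100a9 (0.82 and 0.66), the fibrinogen chain Fgb (0.89 and 0.32), the siderophore-binding protein Lcn2 (0.87 and 0.36) and complement factor Cfb (0.88 and 0.29). It was larger in BLKS for the metallothioneins Mt2 (0.53 and 1.06) and Mt1 (0.40 and 0.96), the elastase Cela3b (0.46 and 0.92) and the collagen Col1a1 (0.58 and 0.77). S100a9 was called higher in BLKS, by 1.72 (limma, adjusted p = 0.0146), and Col1a1 lower, as given above, while the other 8 were not called. An SD over 0.5 was found in 20 genes in B6 and in 50 genes in BLKS. The median SD over all genes was 0.08 in both strains.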
